A study of Mus musculus with 20 samples.

Results

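The genes described here encode the glucose transporter, the enzymes of glycolysis and their regulators, the lactate dehydrogenases and lactate transporters, pyruvate dehydrogenase with its kinases, and the enzymes of the pentose phosphate pathway. They were taken as a list of 32 gene symbols. Each gene was represented by its transcript with the highest total over 20 libraries and was kept where it reached 10 normalised counts in at least 5 libraries. All 32 listed genes passed, among 19876 genes that passed and 38996 gene symbols in all.

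The genes were followed in bulk RNA from 20 tumours, 5 in each of 4 groups, in a study of how letrozole and an antibody against the checkpoint receptor PD-1 alter transcription. The tumours grew from SSM3, a single oestrogen receptor-positive mouse mammary tumour line, implanted in the mammary gland of immunocompetent 129S6/SvEv mice of 2 to 4 months (strain tag 129/SvEv) and treated once they measured about 150 mm3. Letrozole + anti-PD-1 mice were ovariectomised, received 1 mg/kg letrozole under the skin daily for 25 days in 5% ethanol in saline, and received 250 µg of antibody on days 3, 5 and 7 after surgery. Letrozole mice had the same surgery and drug without antibody. Anti-PD-1 mice had sham surgery, daily 5% ethanol in saline and the same antibody, and vehicle mice had sham surgery and 5% ethanol in saline alone. Ovariectomy and letrozole, an inhibitor of the oestrogen-producing enzyme aromatase, were given together in every case, so their effects cannot be told apart and "letrozole" here stands for the pair. The labels name no control antibody.

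Glycolysis splits glucose into pyruvate in the cytosol. Hexokinase traps glucose as glucose 6-phosphate, phosphofructokinase commits it to the pathway, and the later enzymes harvest ATP and NADH. Many tumours turn much of the pyruvate into lactate and export it even when oxygen is present, a habit known as aerobic glycolysis. The pentose phosphate pathway branches off at glucose 6-phosphate and makes NADPH and ribose for the synthesis of lipids and nucleotides. Many of these genes are classical targets of the hypoxia-inducible factor HIF-1 and of MYC, and oestrogen is known to raise glucose use in oestrogen receptor-positive mammary tumour cells.

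The promoters of 4 of the genes that fell with letrozole in the results below are printed. Hk2 and Slc16a1 had the largest falls with letrozole, and Ldha and Tkt also fell. Each sequence is the 250 bases before the annotated start from RefSeq on GRCm38.p6, read 5′ to 3′ on the gene's own strand. Capitals mark ACGTG or its reverse complement CACGT, a form of the core of the HIF response element. Within the palindrome CACGTG these letters lie in the E-box that MYC family proteins bind. The HIF core also occurs as GCGTG, and that form was neither searched for nor marked. Hk2 lies on the minus strand at chr6:82774455-82774704, Slc16a1 on the plus strand at chr3:104638414-104638663, Ldha on the plus strand at chr7:46846832-46847081 and Tkt on the plus strand at chr14:30548881-30549130.
Hk2: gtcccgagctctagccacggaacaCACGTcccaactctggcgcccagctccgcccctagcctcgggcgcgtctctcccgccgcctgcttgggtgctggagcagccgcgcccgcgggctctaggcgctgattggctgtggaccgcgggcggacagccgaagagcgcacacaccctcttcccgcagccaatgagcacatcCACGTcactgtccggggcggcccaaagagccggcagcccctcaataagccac
Slc16a1: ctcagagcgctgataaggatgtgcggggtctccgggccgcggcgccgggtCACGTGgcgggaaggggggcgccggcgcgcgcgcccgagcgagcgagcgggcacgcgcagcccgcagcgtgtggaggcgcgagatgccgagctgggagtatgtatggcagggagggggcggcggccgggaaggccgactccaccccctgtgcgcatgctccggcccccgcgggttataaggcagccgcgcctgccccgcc
Ldha: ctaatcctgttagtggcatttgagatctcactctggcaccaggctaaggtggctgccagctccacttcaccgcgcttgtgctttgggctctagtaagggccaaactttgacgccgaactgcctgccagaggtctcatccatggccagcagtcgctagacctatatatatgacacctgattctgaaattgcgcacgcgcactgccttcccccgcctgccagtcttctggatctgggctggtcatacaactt
Tkt: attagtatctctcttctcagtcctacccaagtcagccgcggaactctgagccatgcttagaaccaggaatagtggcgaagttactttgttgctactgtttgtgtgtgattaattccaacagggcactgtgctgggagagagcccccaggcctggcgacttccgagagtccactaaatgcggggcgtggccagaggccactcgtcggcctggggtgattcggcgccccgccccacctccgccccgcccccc

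The Hk2 window held 2 separate matches to ACGTG. Slc16a1 held a single CACGTG, which counts as 2 overlapping matches on opposite strands, and Ldha and Tkt held no ACGTG. The form GCGTG, on either strand, is present in the Ldha and Tkt windows but was not counted in any window. A RefSeq window was found for all 32 genes, and 12 of them (37.5%) held ACGTG on either strand, against 16.6% of 32851 windows of all genes. Each of the 32 genes has 1 window here, the one nearest the start of its kept transcript. The shares they are set against use every window, without such a choice. Among 15482 windows of tested genes the share was 20.4%, and among the 8533 of these with at least the lower-quartile CpG count of the 32 windows it was 25.0%. CACGTG was present in 5 of the 32 windows (15.6%), against 6.02% of all windows, 7.76% of tested genes' windows and 9.77% of those at or above that CpG count. Of the genes that fell with letrozole in the combined comparison below, Slc2a1 and Pgam1 held 1 match to ACGTG each. Pfkp, Gapdh, Eno1 and G6pdx held no ACGTG in this window. Among the genes not called there, Pfkm, Pfkfb2, Pfkfb3, Aldoa, Pgk1, Slc16a3, Pdk2 and Pdk3 held ACGTG as well. Of these, Pfkm, Pfkfb2, Pfkfb3 and Pdk2 held CACGTG. Whether a match goes with a fall was not tested. The RefSeq start used lay 770 bases from the start of the kept transcript for Gapdh, 314 for G6pdx and 244 for Eno1. For these genes the window is not directly before the start of the transcript that was counted. A match describes these letters only, and binding was not measured.

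Recovered depth, over 1 transcript per gene, ran from 12497282 to 31387527 reads per library. The oestrogen receptor gene Esr1 (4100.1 to 7407 normalised counts) and the luminal keratin gene Krt8 (40514 to 75222) were high in all 20 libraries. Pgr, a classical oestrogen receptor target, lay at 733 to 1618 in letrozole + anti-PD-1 and 805 to 1725 in letrozole tumours, against 7763 to 18215 in anti-PD-1 and 11568 to 17673 in vehicle tumours. Vehicle replicate 3 stood apart from its group: the mean log2 level of 12 fibroblast markers was 11.37 in it and 6.60 to 9.62 in the other 4 vehicle tumours, and that of 12 macrophage markers 9.92 against 7.07 to 8.37. It was the lowest of its group for 21 of the 32 genes. Anti-PD-1 replicate 1 was the shallowest library. Results that rest on vehicle replicate 3 are given with and without it. That tumour was singled out by these same levels, so values without it are descriptive and not separate support. In bulk tumour RNA, fewer tumour cells and less RNA per tumour cell cannot be told apart.

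Levels per kilobase of the kept transcript spanned 3 orders of magnitude. The pyruvate kinase gene Pkm was highest at 21513 normalised counts per kb on average over 20 libraries, followed by the aldolase gene Aldoa at 13411, the lactate dehydrogenase gene Ldha at 10477, Eno1 at 4222 and Tpi1 at 3822. At the other end stood the regulatory gene Pfkfb4 at 40.5, the heart-type lactate dehydrogenase gene Ldhb at 29.9, the lactate exporter gene Slc16a3 at 21.0 and the neuronal enolase gene Eno2 at 15.3. Aldoa and Ldha did not overlap Eno1 in their ranges, while Eno1 (2791 to 6207) and Tpi1 (2589 to 5694) overlapped almost fully. At several steps with more than 1 gene, a single gene supplied most of the level: Hk1 over Hk2 (1365 and 252 per kb), Pfkl over Pfkp and Pfkm (1344, 634 and 197), Aldoa over Aldoc (509.9) and Slc16a1 over Slc16a3 (703 for Slc16a1). The pyruvate dehydrogenase kinase genes were more even, with Pdk3 at 618, Pdk1 at 453 and Pdk2 at 332. The gene order is a description, and the kept Gapdh transcript is a long one annotated with a retained intron, so its 3316 per kb may understate the gene.

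**Figure D1:**
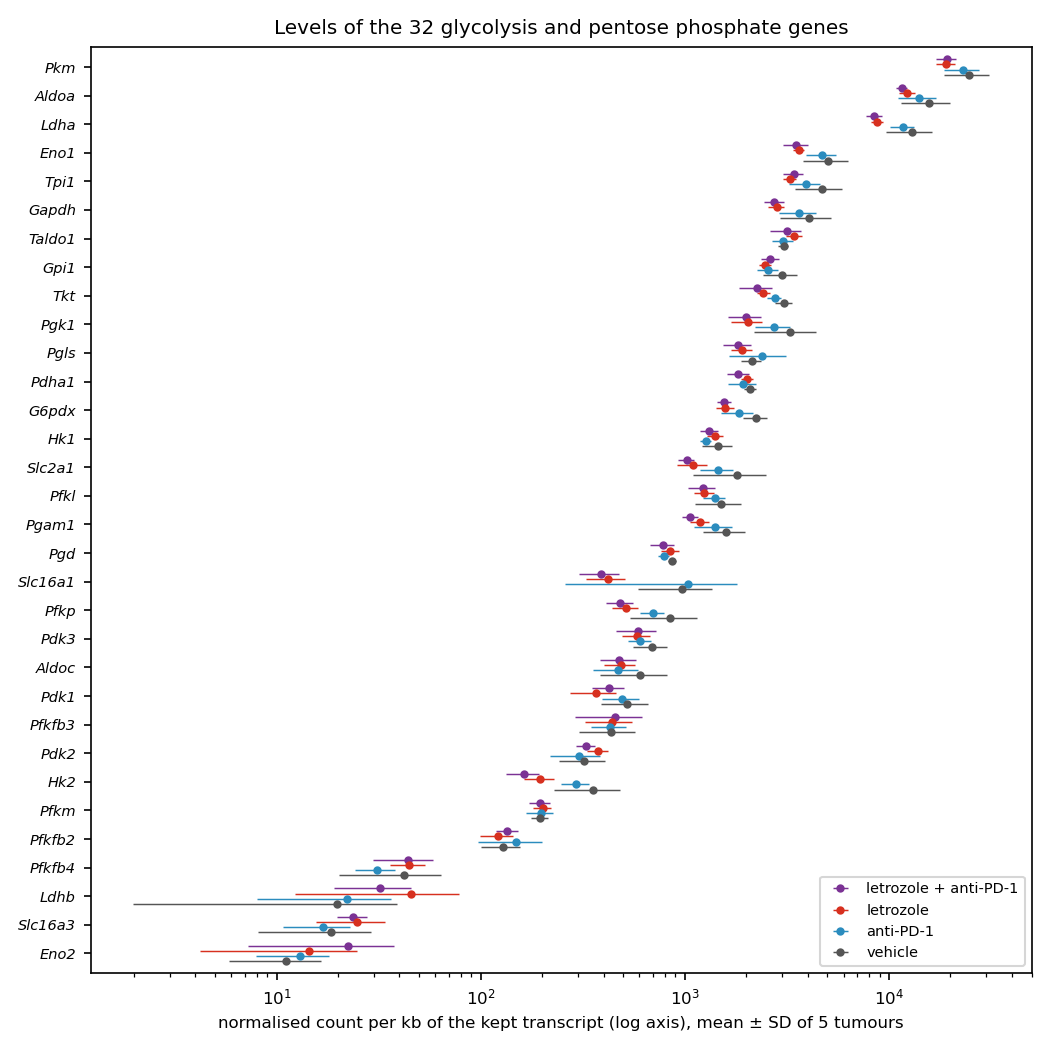
Mean normalised count per kb of the kept transcript (log axis) for the 32 genes in letrozole + anti-PD-1, letrozole, anti-PD-1 and vehicle tumours, with bars of 1 SD over 5 tumours. Pkm, Aldoa and Ldha lead and Slc16a3 and Eno2 trail in every group, with Ldhb and Pfkfb4 just above them.

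Variation among tumours was uneven. Slc16a1 varied 8.20-fold between its lowest and highest library and Ldhb 24.3-fold. The 6-phosphogluconate dehydrogenase gene Pgd was the steadiest, with a coefficient of variation of 9.52% and a 1.41-fold range. Together the 32 genes took 0.763 ± 0.0626% of normalised counts in letrozole + anti-PD-1 tumours, 0.770 ± 0.0399% in letrozole, 0.882 ± 0.0931% in anti-PD-1 and 0.991 ± 0.210% in vehicle tumours (mean ± SD, n = 5 each). In vehicle replicate 3 this share was 0.624%, the lowest of all 20 libraries.

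Glucose uptake, the phosphofructokinase step, the payoff phase, lactate production and export, and the start of the pentose phosphate pathway all held genes that fell with letrozole. With the letrozole effect averaged over both antibody arms, 10 of the 32 genes fell and none rose (limma, adjusted p below 0.05 over 19876 genes), against 7% of all tested genes called in either direction and 3.72% called lower. The 10 were Slc2a1, Hk2, Pfkp, Gapdh, Pgam1, Eno1, Ldha, Slc16a1, G6pdx and Tkt. The median log2 difference of the 32 genes was -0.23, against 0.03 over all tested genes, and 23 of the 32 lay below 0. edgeR on recovered reads called 11 and DESeq2 12. The shares of all genes that these tools called are not given here, so their counts are not read against a background.

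That count depended on single libraries. It was 16 without vehicle replicate 3, where 11.9% of all genes were called and 5.4% were called lower. It was 5 without vehicle replicate 1, 2 or 5, letrozole replicate 5 or letrozole + anti-PD-1 replicate 5. It was 6 without vehicle replicate 4, anti-PD-1 replicate 2, 3 or 4, letrozole replicate 1 or 4, or letrozole + anti-PD-1 replicate 2, and from 7 to 11 without any other library. Hk2, Ldha, Slc16a1, G6pdx and Tkt kept their call under all 32 alternatives tried.

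Within each antibody arm the same direction appeared with few calls. Letrozole tumours against vehicle tumours gave 1 called gene, G6pdx, which was lower; 0.951% of all genes were called in that comparison and 0.548% were called lower. The median log2 difference was -0.24 and 24 of the 32 genes were below 0. Without vehicle replicate 3 the count was 15, all lower, against 4.14% of all genes called and 1.73% called lower, and it was 0 to 2 without any other library. Letrozole + anti-PD-1 tumours against anti-PD-1 tumours gave 0 called genes by limma, against 1.07% of all genes called and 0.594% called lower, with 10 genes at an unadjusted p below 0.05, 0 called by edgeR and 2, Hk2 and Slc16a1, by DESeq2. The median there was -0.20, with 22 genes below 0, and 3 genes, Hk2, Pfkp and Ldha, were called lower without vehicle replicate 3, against 1.33% of all genes called and 0.72% called lower; Slc16a1 alone was called without anti-PD-1 replicate 3. Letrozole + anti-PD-1 tumours against vehicle tumours gave 3 called genes, Hk2, G6pdx and Tkt, all lower, against 1.18% of all genes called and 0.719% called lower. That count was 15 without vehicle replicate 3, against 3.54% of all genes called and 1.98% called lower, and 0 without vehicle replicate 1, 2 or 5 or letrozole + anti-PD-1 replicate 1, 3 or 5. It was 1 without vehicle replicate 4 or letrozole + anti-PD-1 replicate 2, and 2 to 4 without each of the rest. The letrozole comparisons share libraries, so their values are given side by side and not as separate support.

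**Figure D2:**
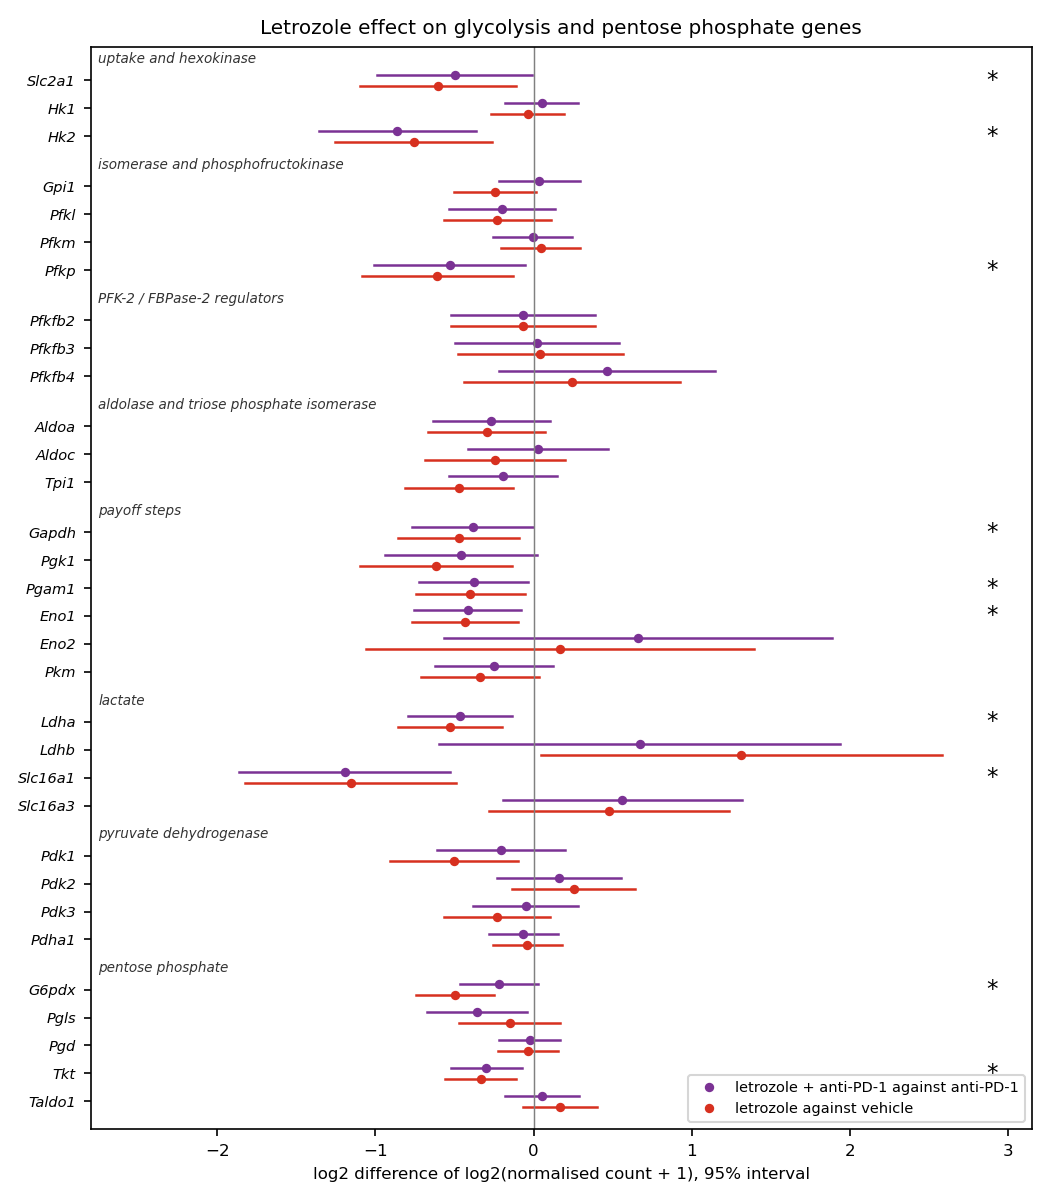
Log2 difference of log2(normalised count + 1), with 95% intervals, for letrozole + anti-PD-1 against anti-PD-1 and for letrozole against vehicle, by pathway step (n = 5 tumours a group). Asterisks mark the 10 genes called with letrozole averaged over both arms, whose points all lie left of 0 in both arms.

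At the uptake and trapping step, Slc2a1, which encodes the glucose transporter GLUT1, had 3668, 3366, 2942, 3559.9 and 3097 normalised counts in letrozole + anti-PD-1 tumours and 3299, 3191, 4622, 3373 and 3412 in letrozole tumours. The gene had 5015, 6172, 4236, 4437 and 3884 in anti-PD-1 tumours and 5944, 8467, 2268, 5631 and 7059.8 in vehicle tumours. The antibody arms did not overlap, and in the arms without antibody only vehicle replicate 3 lay below any letrozole tumour. Slc2a1 fell with letrozole (log2 -0.55, SE 0.17, adjusted p = 0.0495). This call sat at the threshold and was lost without 17 of the 20 libraries taken singly, that is without any but vehicle replicate 3, anti-PD-1 replicate 5 or letrozole replicate 3, where adjusted p was 0.0572 to 0.0907.

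Hk2 encodes the inducible hexokinase that tumours often raise. Its counts were 750.0, 755, 893, 1156 and 925 in letrozole + anti-PD-1 and 1082, 1354, 963, 1113 and 879 in letrozole tumours. They were 1616, 1808, 1342, 1944 and 1404 in anti-PD-1 and 2551, 2092, 756, 2245 and 2112 in vehicle tumours. Hk2 was lower in every letrozole + anti-PD-1 tumour than in any anti-PD-1 tumour, and letrozole tumours lay below the 4 vehicle tumours other than replicate 3. The means were 896 ± 166 in letrozole + anti-PD-1, 1078 ± 180.4 in letrozole, 1623 ± 257 in anti-PD-1 and 1951 ± 693 in vehicle tumours (SD, n = 5 each). Hk2 fell with letrozole averaged over the arms (log2 -0.81, SE 0.17, adjusted p = 0.00622), by 0.86 on the log2 scale (95% interval -1.36 to -0.37) with antibody and by 0.76 (interval -1.25 to -0.26) without; neither arm alone was called (adjusted p = 0.0911 and 0.144 by limma). Hk1, the constitutive hexokinase, did not pass the test and differed by 0.01 (interval -0.16 to 0.17).

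At the next 2 steps, Pfkp, the platelet-type phosphofructokinase, was the single gene called. It stood at 2330.0, 2022, 1924, 2193 and 1539.8 in letrozole + anti-PD-1 and 1984, 2484, 2410.3, 2081 and 1739 in letrozole tumours. The values were 2929, 3429.5, 2854, 2836 and 2362 in anti-PD-1 and 4378, 4356, 1391, 4131 and 3224 in vehicle tumours. The antibody arms did not overlap, and again vehicle replicate 3 alone reached below the letrozole tumours. Pfkp fell with letrozole (log2 -0.57, SE 0.16, adjusted p = 0.0378). The call was lost without any of 12 libraries, which were vehicle replicates 1, 2, 4 and 5, anti-PD-1 replicates 2, 3 and 4, letrozole replicates 1, 4 and 5 and letrozole + anti-PD-1 replicates 2 and 5 (adjusted p 0.0510 to 0.0774). About 18.1% of the exon bases of the kept Pfkp transcript overlap Pitrm1 on the opposite strand, and the sources used here do not give whether counting used strand. The liver-type gene Pfkl differed by -0.21 (interval -0.45 to 0.02), the muscle-type gene Pfkm by 0.02 (-0.16 to 0.20) and the isomerase gene Gpi1 by -0.10 (-0.28 to 0.08), and none of the 3 passed. Pfkl was called lower without vehicle replicate 3 (adjusted p = 0.0183).

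The bifunctional PFK-2/FBPase-2 enzymes set the level of fructose 2,6-bisphosphate, the strongest activator of phosphofructokinase. None of their 3 genes passed the test. Pfkfb4, the one with the smallest p, had 199, 95.4, 213, 127 and 133 in letrozole + anti-PD-1 tumours and 159, 112, 148, 165 and 197 in letrozole tumours. It had 110.1, 68.2, 112, 128 and 126 in anti-PD-1 tumours and 59.5, 191, 247, 155 and 83.5 in vehicle tumours, where replicate 3 was the highest of all 20 libraries, opposite to its place in most of the pathway. The groups overlapped in both arms (log2 0.35, interval -0.13 to 0.84, adjusted p = 0.379). Pfkfb3, the isoform best known from proliferating cells, differed by 0.03 (-0.33 to 0.40) and Pfkfb2 by -0.07 (-0.39 to 0.26). The kept Pfkfb2 transcript is annotated as a target of nonsense-mediated decay and shares 28.0% of its own exon bases with Gm29427 on the same strand.

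None of the aldolase and triose phosphate isomerase genes passed, although all 3 lay below 0. Tpi1, whose enzyme interconverts the triose phosphates, had 6242, 5428, 5852, 5185 and 4702 in letrozole + anti-PD-1 and 4892, 5158, 5939, 5136 and 5152 in letrozole tumours. It had 6634, 7899, 6099, 5909 and 4966 in anti-PD-1 and 8269.9, 9149.7, 4160.0, 8126 and 7957 in vehicle tumours. Vehicle replicate 3 was the lowest of all 20, and the other 4 vehicle tumours were above every letrozole tumour. The difference was -0.33 (interval -0.57 to -0.09, adjusted p = 0.0879), and without vehicle replicate 3 it passed (adjusted p = 0.00168). Aldoa, the main aldolase, differed by -0.28 (-0.54 to -0.02) and passed only without that library among the 20 left out singly (adjusted p = 0.00688). Aldoc differed by -0.11 (-0.42 to 0.20).

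In the payoff phase, where ATP and NADH are made, 3 of 6 genes fell. Gapdh, glyceraldehyde 3-phosphate dehydrogenase, had 10709.9, 9185, 8886, 8272 and 8194 in letrozole + anti-PD-1 and 9426, 9366, 10561, 8528 and 8419 in letrozole tumours. In anti-PD-1 tumours it had 13517, 14444, 13270.1, 9697 and 8919.5 and in vehicle tumours 14592, 16544, 6979.6, 14128 and 14470.4. Groups overlapped in the antibody arm, and in the other arm only through vehicle replicate 3. Gapdh is often used as a reference gene, and here it fell with letrozole (log2 -0.43, SE 0.13, adjusted p = 0.0497), a call at the threshold that held without vehicle replicate 3, anti-PD-1 replicate 5 or letrozole + anti-PD-1 replicate 1 and was lost without each of the other 17 (adjusted p 0.0507 to 0.0936). Pgk1, phosphoglycerate kinase, lay just outside the threshold (log2 -0.54, SE 0.16, adjusted p = 0.0508) and passed without vehicle replicate 3, anti-PD-1 replicate 5, letrozole replicate 3 or letrozole + anti-PD-1 replicate 1 (adjusted p 5.69e-04 to 0.0498). Its means were 3642 ± 676, 3706 ± 647, 5019 ± 989.7 and 6007 ± 2002 in letrozole + anti-PD-1, letrozole, anti-PD-1 and vehicle tumours.

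Pgam1, phosphoglycerate mutase, had 2022, 2052, 1941, 1744 and 1663 in letrozole + anti-PD-1 and 1825, 2304, 2334, 2156 and 1914 in letrozole tumours. It had 3118, 2788, 2477, 2383 and 1695 in anti-PD-1 and 3380.3, 3278, 1731, 2787 and 3020.3 in vehicle tumours. Anti-PD-1 replicate 5 and vehicle replicate 3 were the 2 low libraries among those without letrozole, and the call (log2 -0.39, SE 0.12, adjusted p = 0.0472) held without either of them and was lost without each of the other 18 (adjusted p 0.0509 to 0.0944). Eno1, the main enolase, had 8478, 7389, 7240.4, 6934 and 5657 in letrozole + anti-PD-1 and 7539, 7416, 7845, 7292 and 6584 in letrozole tumours. It had 10675, 9568, 11159, 9239 and 7144 in anti-PD-1 and 10929, 12582, 5926, 10567 and 10998 in vehicle tumours. The letrozole tumours sat in a narrow band below the 4 vehicle tumours other than replicate 3, while the antibody arms overlapped at the low anti-PD-1 replicate 5. Eno1 fell with letrozole (log2 -0.42, SE 0.11, adjusted p = 0.0288); leaving out vehicle replicate 1, 2 or 5, letrozole replicate 5 or letrozole + anti-PD-1 replicate 5 ended the call (adjusted p 0.0536 to 0.0609). Pkm, the most abundant of the genes, did not pass (-0.29, interval -0.56 to -0.03, adjusted p = 0.167; 0.0125 without vehicle replicate 3). Eno2 was low throughout, at 29.8 to 125 in letrozole + anti-PD-1, 10.8 to 73.8 in letrozole, 12.4 to 49.9 in anti-PD-1 and 9.16 to 46.5 in vehicle tumours, and its interval was wide (-0.45 to 1.28). Many genes of this phase have near-identical processed copies in the mouse genome, and the sources used here do not give how reads shared with those copies were counted.

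**Figure D3:**
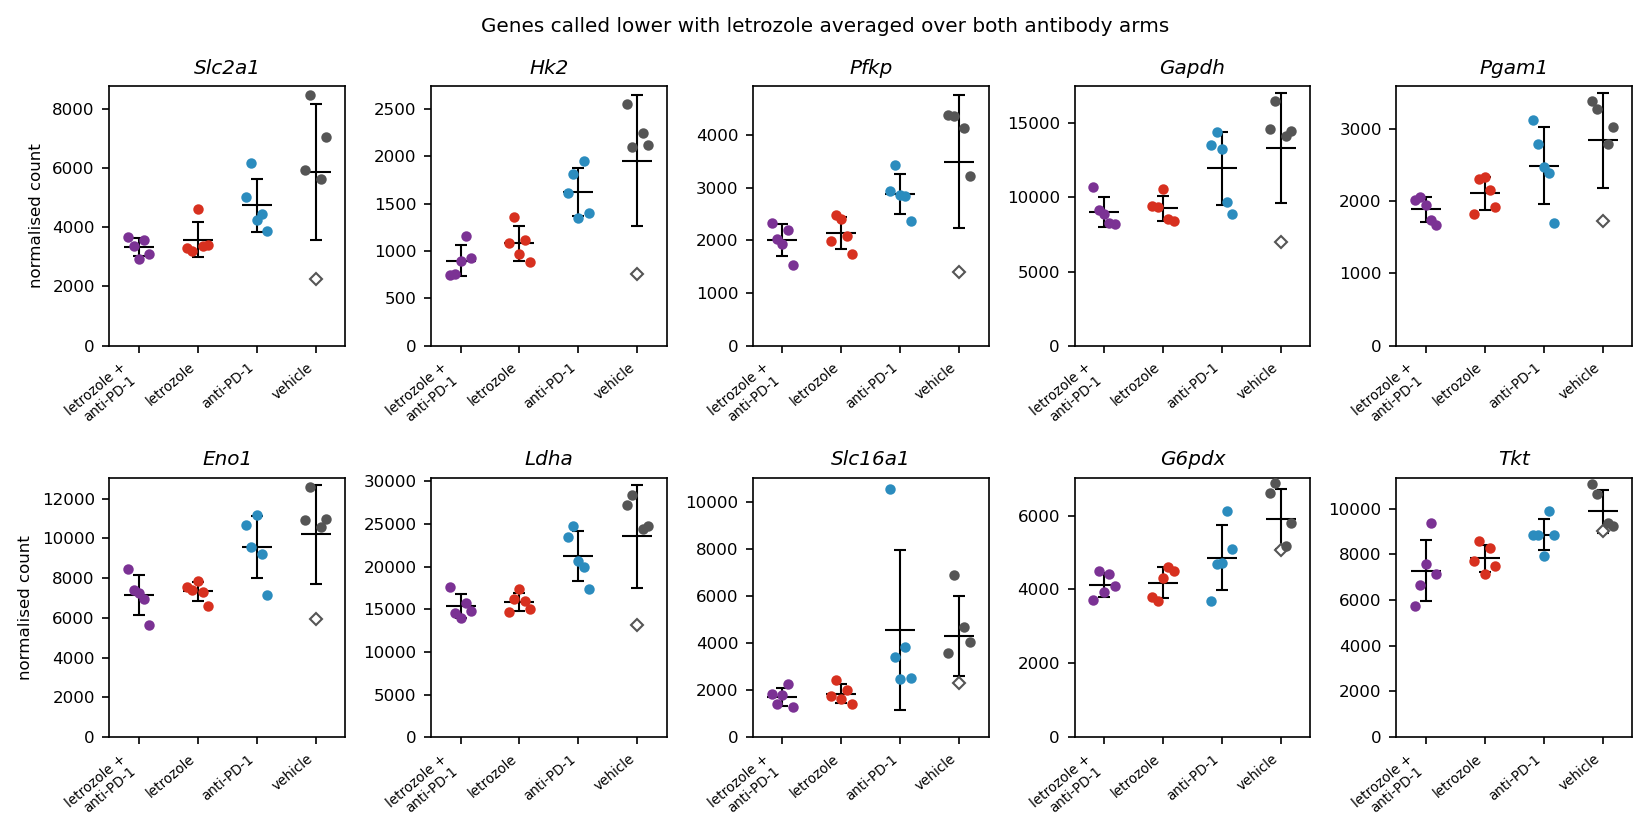
Normalised counts of the 10 genes called lower with letrozole averaged over both arms, 1 point per tumour, with group mean and SD (n = 5). The open diamond is vehicle replicate 3, which lies below or among the tumours of both letrozole groups for most of the genes and above every letrozole tumour without antibody for G6pdx and Tkt.

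The lactate genes held the largest difference of the pathway. Slc16a1 encodes the monocarboxylate transporter MCT1, which carries lactate and pyruvate across the plasma membrane. It had 1827, 1427, 1801, 2273 and 1291 in letrozole + anti-PD-1 and 1756, 2454, 1634, 2020.2 and 1396 in letrozole tumours. In anti-PD-1 tumours it had 10589.9, 3394, 2468, 3843 and 2539, the first of these being the highest of all libraries, and in vehicle tumours 3571, 6907, 2324, 4692 and 4065. The antibody arms did not overlap, and a single vehicle tumour, replicate 3, lay within the range of the letrozole tumours. Slc16a1 fell with letrozole (log2 -1.18, SE 0.23, adjusted p = 0.00352), by 1.19 on the log2 scale with antibody (interval -1.86 to -0.53) and by 1.16 without (interval -1.82 to -0.49); neither arm passed alone (adjusted p = 0.0781 and 0.0969 by limma).

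Ldha, which turns pyruvate into lactate, had 17588, 14624, 14025, 15792 and 14811 in letrozole + anti-PD-1 and 14678, 16154, 17403, 15987 and 15049 in letrozole tumours. Its values were 23501, 24749, 20716, 19982 and 17393 in anti-PD-1 and 27185, 28407, 13149, 24369 and 24767 in vehicle tumours. The 2 letrozole groups covered almost the same range, whose top just reached the lowest anti-PD-1 tumour, and vehicle replicate 3 was lower than all of them. Ldha fell with letrozole (log2 -0.49, SE 0.11, adjusted p = 0.0107), with means of 15368 ± 1394 in letrozole + anti-PD-1, 15854 ± 1065 in letrozole, 21268 ± 2919 in anti-PD-1 and 23576 ± 6065 in vehicle tumours. The other genes of this step lay on the other side of 0 and did not pass. Ldhb, the form that favours oxidation of lactate, was at 25.5, 32.9, 36.4, 69.9 and 45.3 in letrozole + anti-PD-1 and 20.5, 94.7, 30.7, 34.1 and 116 in letrozole tumours. It was at 8.47, 58.9, 24.9, 30.1 and 22.6 in anti-PD-1 and 12.8, 27.2, 67.4, 4.76 and 17.3 in vehicle tumours. The groups overlapped widely, and vehicle replicate 3 was again the exception of its group, here on the high side (log2 0.99, interval 0.10 to 1.89, adjusted p = 0.173). Slc16a3, the hypoxia-inducible exporter MCT4, differed by 0.52 (-0.02 to 1.05).

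Pyruvate dehydrogenase feeds pyruvate to the mitochondria, and its kinases switch it off. None of the 4 genes passed. Pdk1 had 2713, 1818, 2517, 2203 and 1825 in letrozole + anti-PD-1 and 2112, 1569.8, 2616, 1417 and 1806 in letrozole tumours. It had 3118, 3110.1, 2352, 1904 and 2343 in anti-PD-1 and 3712, 2711, 1731, 2775 and 2626 in vehicle tumours. All groups overlapped, and the difference was -0.35 (interval -0.64 to -0.07, adjusted p = 0.124, 0.0314 without vehicle replicate 3). Pdk2 differed by 0.21 (-0.07 to 0.48), Pdk3 by -0.14 (-0.38 to 0.10) and Pdha1, the catalytic subunit, by -0.05 (-0.21 to 0.10). The kept Pdha1 transcript shares 21.2% of its exon bases with Map3k15 on the opposite strand.

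In the pentose phosphate pathway 2 of 5 genes fell. For both, vehicle replicate 3 was the lowest of its group and still above every letrozole tumour without antibody. G6pdx encodes glucose-6-phosphate dehydrogenase, the first and rate-limiting enzyme. It had 3723, 4488, 3927, 4430.2 and 4086 in letrozole + anti-PD-1 and 3796, 3678, 4313, 4616 and 4486 in letrozole tumours. It had 3689.5, 4687, 4711, 6131 and 5100.3 in anti-PD-1 and 6605, 6870.2, 5076, 5182 and 5805 in vehicle tumours. Every letrozole tumour was below every vehicle tumour, while the antibody arms overlapped through anti-PD-1 replicate 1, the lowest of its group. G6pdx fell with letrozole averaged over the arms (log2 -0.36, SE 0.08, adjusted p = 0.0132). It fell in letrozole against vehicle tumours (log2 -0.49, SE 0.12, adjusted p = 0.0484) and in letrozole + anti-PD-1 against vehicle tumours (-0.51, adjusted p = 0.0366 by limma), and differed by -0.22 (-0.47 to 0.03) in letrozole + anti-PD-1 against anti-PD-1 tumours, without passing. The call against vehicle in letrozole tumours held without vehicle replicate 3, anti-PD-1 replicate 1 or 4 or letrozole + anti-PD-1 replicate 3 and was lost without each of the other 16 libraries (adjusted p 0.0514 to 0.145). The call in letrozole + anti-PD-1 tumours ended on leaving out vehicle replicate 1, 2 or 5 or letrozole + anti-PD-1 replicate 1, 3 or 5 (adjusted p 0.0678 to 0.120).

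Tkt, the transketolase of the non-oxidative branch, had 5723, 6665, 7568, 9360.4 and 7131 in letrozole + anti-PD-1 and 7711, 8588, 7123, 8274 and 7473 in letrozole tumours. It had 8853, 8836, 7926, 9881 and 8862 in anti-PD-1 and 11099.7, 10663, 9045, 9361 and 9249 in vehicle tumours. Letrozole and vehicle tumours did not overlap. The antibody arms did, through the high letrozole + anti-PD-1 replicate 4. Tkt fell with letrozole (log2 -0.32, SE 0.08, adjusted p = 0.0155) and in letrozole + anti-PD-1 against vehicle tumours (-0.45, adjusted p = 0.0410 by limma). The second call was lost without vehicle replicate 1, 2, 4 or 5, anti-PD-1 replicate 2, letrozole replicate 1, 4 or 5, or letrozole + anti-PD-1 replicate 1, 2, 3 or 5 (adjusted p 0.0510 to 0.130). The corresponding call for Hk2 (log2 -1.03, adjusted p = 0.0348) ended on leaving out vehicle replicate 1, 2, 4 or 5 or letrozole + anti-PD-1 replicate 1, 2, 3 or 5 (adjusted p 0.0678 to 0.121). The remaining genes of the branch did not pass: Pgls differed by -0.25 (-0.48 to -0.03), Pgd by -0.03 (-0.16 to 0.11) and Taldo1, the transaldolase, by 0.11 (-0.06 to 0.27).

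Complete separation of 5 tumours from 5 was seen for few of the genes. Letrozole + anti-PD-1 tumours lay below every anti-PD-1 tumour for 4 genes, Slc2a1, Hk2, Pfkp and Slc16a1, where 1.47% of all genes did. Letrozole tumours lay below every vehicle tumour for 2 genes, G6pdx and Tkt, against 1.97% of all genes. Letrozole + anti-PD-1 tumours lay below every vehicle tumour for 2, Slc16a1 and G6pdx, against 1.59%. No gene of the 32 was separated upwards in these 3 comparisons, against 1.37%, 1.71% and 1.32% of all genes in the same order.

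Where several genes serve a step, the balance between them was compared within each library as the log2 ratio of normalised counts plus 1, which library scaling hardly touches. Labels were exchanged within each antibody arm in an exact two-sided permutation test of 63504 rearrangements, adjusted over 8 ratios. The Hk2/Hk1 ratio averaged -2.67 ± 0.24 in letrozole + anti-PD-1, -2.49 ± 0.26 in letrozole, -1.75 ± 0.29 in anti-PD-1 and -1.77 ± 0.49 in vehicle tumours. With letrozole it differed by -0.82 (exact adjusted p = 0.00126). The kept Hk2 transcript was thus lower relative to the kept Hk1 transcript with letrozole. The other hexokinase genes and transcripts are not in this ratio. Vehicle replicate 3, at -2.59, lay within the range of the letrozole tumours without antibody (-2.68 to -2.06).

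The Pfkp/Pfkl ratio also differed downwards, by -0.35 (exact adjusted p = 0.00344), with means of -1.19, -1.12, -0.86 and -0.74 in letrozole + anti-PD-1, letrozole, anti-PD-1 and vehicle tumours. The Slc16a3/Slc16a1 ratio, exporter MCT4 over transporter MCT1, was higher by 1.69 (exact adjusted p = 0.00126) and the Ldhb/Ldha ratio by 1.49 (exact adjusted p = 0.0177). These 4 ratios passed in all 24 alternatives run for them. They share a gene with the calls above and do not stand apart from them. The Ldhb/Ldha ratio rested partly on low Ldhb levels in both arms, down to 8.47 in anti-PD-1 replicate 1 and 4.76 in vehicle replicate 4. Taken alone, the arm with antibody gave an exact unadjusted permutation p of 0.0397 and the arm without antibody 0.0714. Vehicle replicate 3 lay with the letrozole tumours in this ratio at -7.59, the highest of its group, against -10.19 ± 1.65 over the vehicle group.

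The other ratios did not pass. Pfkm/Pfkl differed by 0.23 (exact adjusted p = 0.0919) and passed without vehicle replicate 3 (0.32, exact adjusted p = 0.00292) or letrozole + anti-PD-1 replicate 3 (0.28, exact adjusted p = 0.0326). Aldoc/Aldoa differed by 0.17 (exact adjusted p = 0.159), Eno2/Eno1 by 0.84 (0.111) and Pdk1/Pdk3 by -0.21 (0.122).

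**Figure D4:**
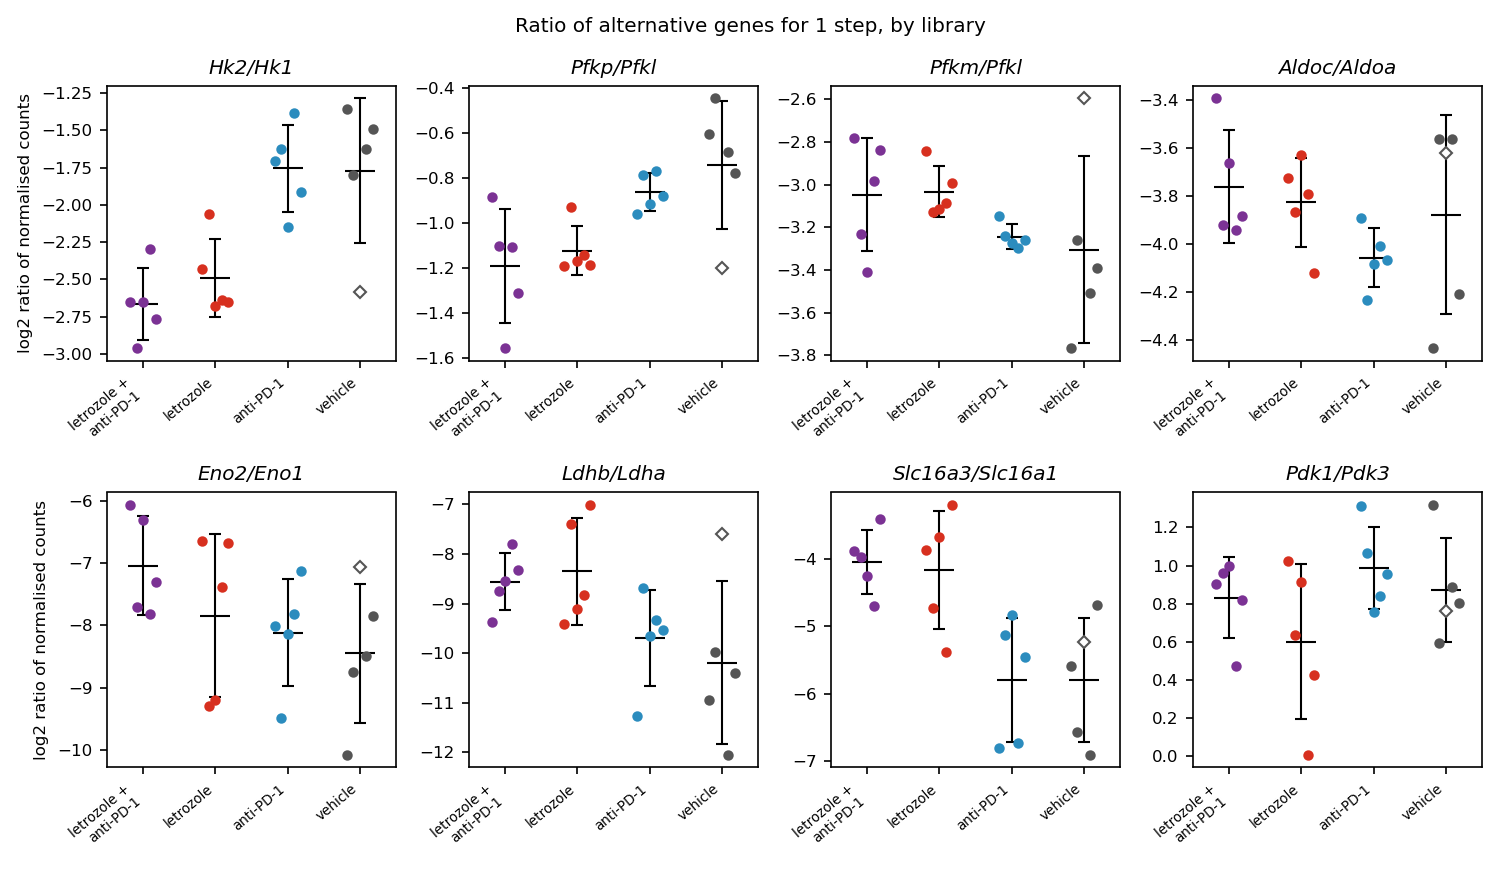
Log2 ratio of normalised counts plus 1 for 8 pairs of alternative genes, 1 point per tumour with group mean and SD (n = 5); the open diamond is vehicle replicate 3. Hk2/Hk1 and Pfkp/Pfkl sit lower, and Ldhb/Ldha and Slc16a3/Slc16a1 higher, on average in both letrozole groups than in both groups without letrozole.

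The antibody made no detectable difference to any of the 32 genes. In anti-PD-1 against vehicle tumours 0 genes were called by limma, edgeR and DESeq2, 1 gene, G6pdx, had an unadjusted p below 0.05, and 0% of all tested genes were called by limma (540 at an unadjusted p below 0.05, 0 by edgeR and 5 by DESeq2). The median log2 difference was -0.12, with 26 of the 32 genes below 0 and values from -0.30 to 0.39. Hk2 differed by -0.17 (95% interval -0.66 to 0.33), Slc2a1 by -0.20 (-0.69 to 0.29), Ldha by -0.11 (-0.44 to 0.22) and Slc16a1 by -0.07 (-0.73 to 0.60), so only the Slc2a1 interval, of these 4, reaches the difference that gene had with letrozole. Letrozole + anti-PD-1 against letrozole tumours also gave 0 calls by all 3 tools and 0 at an unadjusted p below 0.05 among the 32, against 0% of all genes by limma (627 at an unadjusted p below 0.05, 0 by edgeR and 9 by DESeq2). The median was -0.05, with Hk2 at -0.27 (-0.77 to 0.23) and Ldha at -0.05 (-0.38 to 0.28). The interaction, which asks whether letrozole acted differently with the antibody, gave 0 calls and 0 unadjusted p below 0.05 among the 32 by limma and 0 by edgeR and DESeq2, against 0% of all genes by limma (393 at an unadjusted p below 0.05, 0 by edgeR and 4 by DESeq2). For Hk2 it was -0.10 (-0.80 to 0.60), for Slc16a1 -0.04 (-0.98 to 0.90) and for G6pdx 0.27 (-0.07 to 0.62). A typical standard error was 0.24 between 2 groups, so small differences could not be seen.

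Of 60 other genes of the same pathways listed beside the 32, 49 passed the filter and 6 were called with letrozole averaged over both arms (12.2%, against 7% of all genes), 3 higher and 3 lower. Bpgm, which makes 2,3-bisphosphoglycerate in a side route of the payoff phase, rose. It had 1532, 1214, 987, 1109.7 and 1464 in letrozole + anti-PD-1 and 1167, 1071, 1383, 1021 and 1316 in letrozole tumours. It had 779, 549, 765, 676 and 726 in anti-PD-1 and 587, 634, 928, 549.6 and 753 in vehicle tumours. Neither arm overlapped, and Bpgm was higher in every tumour of both letrozole groups than in any tumour without letrozole (log2 0.82, SE 0.11, adjusted p = 8.19e-05). It also passed within each arm, at 0.84 with antibody (adjusted p = 0.00803) and 0.80 without (adjusted p = 0.0105 by limma), and in all 32 alternatives of the averaged comparison. The mean log2 level of 3 erythrocyte markers was 4.50 to 6.48 in letrozole + anti-PD-1 and 4.35 to 6.23 in letrozole tumours. It was 3.96 to 5.57 in anti-PD-1 and 4.14 to 6.07 in vehicle tumours. The part of blood content in the Bpgm values was not tested.

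Galm, which converts between the anomers of sugars, rose (log2 0.62, SE 0.16, adjusted p = 0.0187). The insulin-responsive transporter gene Slc2a4, a marker of muscle and fat, was at 11.6, 45.3, 15.5, 125 and 111 in letrozole + anti-PD-1 and 49.7, 146, 45.0, 40.8 and 38.8 in letrozole tumours. It was at 0, 3.10, 0, 17.5 and 54.7 in anti-PD-1 and 27.5, 2.27, 41.2, 13.1 and 23.6 in vehicle tumours. The groups overlapped in both arms. Its call (log2 2.37, SE 0.70, adjusted p = 0.0451) held in 12 of 31 alternatives, was lost without any library but vehicle replicate 3, anti-PD-1 replicate 4 or 5 or letrozole + anti-PD-1 replicate 1 or 3 (adjusted p 0.0592 to 0.0871) and rests on a transcript with a retained intron. The enolase retrogene Eno1b, close to Eno1 in sequence, fell (log2 -0.48, SE 0.13, adjusted p = 0.0257), a call that ended on leaving out vehicle replicate 1 or 2 or letrozole + anti-PD-1 replicate 5 (adjusted p 0.0504 to 0.0553); reads of Eno1 and Eno1b may not be separable. Pck2, the mitochondrial phosphoenolpyruvate carboxykinase, fell (log2 -0.42, SE 0.11, adjusted p = 0.0198). Pdp2, a phosphatase that switches pyruvate dehydrogenase on, fell (log2 -0.40, SE 0.11, adjusted p = 0.0331), a call lost without vehicle replicate 2 or 4, anti-PD-1 replicate 4 or 5, letrozole replicate 3 or 5, or letrozole + anti-PD-1 replicate 1, 2 or 5 (adjusted p 0.0521 to 0.0678). Within the 2 arms 1 of the 49 genes was called in each, and it was Bpgm (2.04%, against 0.951% and 1.07% of all genes without and with antibody).

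Other gene groups were read beside these, and their called members are named after their values were seen. Of 12 proliferation genes, 10 fell with letrozole averaged over the arms, where 7% of all genes were called (median -0.57), and the mean log2 level of the list ran from 10.27 to 11.06 in letrozole + anti-PD-1 and 9.96 to 10.58 in letrozole tumours, against 10.81 to 11.11 in anti-PD-1 and 10.86 to 11.23 in vehicle tumours. Of 14 HIF targets outside glycolysis, Ddit4, Kdm3a and Adm fell and none rose (3 genes, median -0.32); vehicle replicate 3 was at 9.76 on that list, against 10.82 to 10.99 in the other vehicle tumours. Without that tumour, when 11.9% of all genes were called, 6 targets fell. Of 12 macrophage markers 1, Cd14, rose, a share near the 7% of all genes, with a median of 0.73, and 8 rose without vehicle replicate 3, against 11.9% of all genes called. None of 12 fibroblast markers was called by limma (5 at an unadjusted p below 0.05, 0 by edgeR and 1 by DESeq2), with a median of 0.87, and 2 rose without vehicle replicate 3. Vehicle replicate 3 was singled out by its high fibroblast and macrophage levels and was low on the HIF list. The counts without it therefore follow in part from that choice. Summed fibroblast levels were 21459 to 61174 in letrozole + anti-PD-1, 16649 to 100404 in letrozole, 26769.5 to 62934 in anti-PD-1 and 13588 to 113874 in vehicle tumours, and the highest vehicle value belonged to replicate 3.

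Of 15 skeletal muscle markers 13 passed the filter and none was called by limma (7 at an unadjusted p below 0.05, 8 by edgeR and 7 by DESeq2, whose shares over all genes are not given here). Their summed levels were 699 to 6717 in letrozole + anti-PD-1, 889 to 7506 in letrozole, 550.4 to 2415 in anti-PD-1 and 512 to 948 in vehicle tumours. The mean log2 level of 11 T cell markers was 2.95 to 5.79 in letrozole + anti-PD-1, 3.16 to 5.78 in letrozole, 2.35 to 3.96 in anti-PD-1 and 2.49 to 5.13 in vehicle tumours, with none called by limma, edgeR or DESeq2 and 1 at an unadjusted p below 0.05. No marker of these lists was at 0 in every library. Among the 9 tumour epithelium genes, Epcam and Gata3 rose and Pgr fell with letrozole averaged over the arms, where 7% of all genes were called. The other genes of that list were not called. The part of proliferation, hypoxia targets, stroma and muscle in the values of the 32 genes was not tested.

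**Figure D5:**
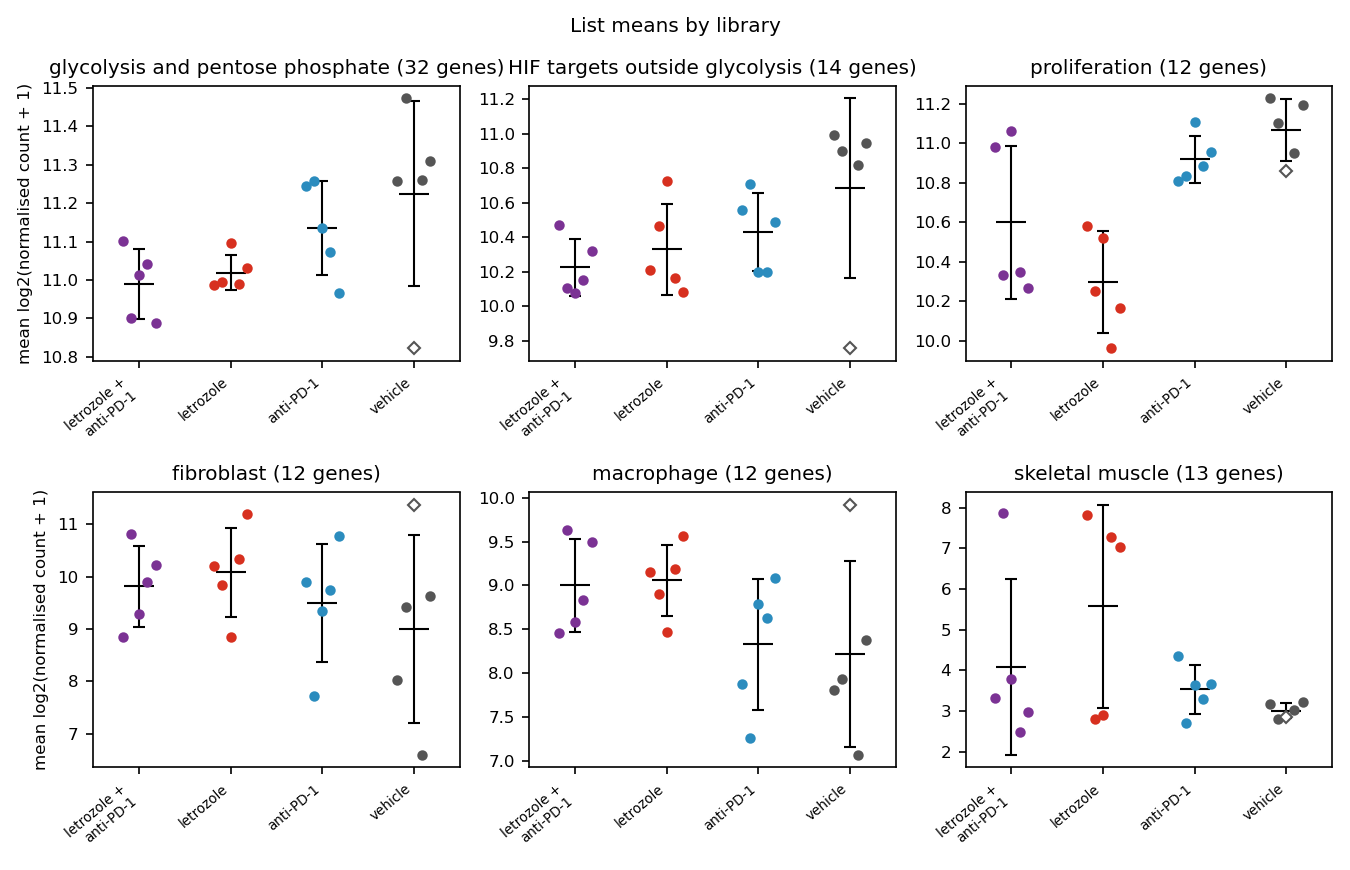
Mean log2(normalised count + 1) per tumour over the 32 genes and over 5 marker lists, with group mean and SD (n = 5); the open diamond is vehicle replicate 3. That tumour is the lowest for the 32 genes and for HIF targets and the highest for fibroblast and macrophage markers.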

How the data were processed

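Per the labels' protocols, tumour RNA was isolated with a Qiagen kit and Swift Rapid libraries were prepared from it. STAR 2.7.10a and DESeq2 are named for alignment and analysis on GRCm39 in the submitters' processing notes, without roles. The authors deposited 1 table of 127442 transcripts, whose unit is signal: read counts scaled by library size factors, here found to be 0.472 to 1.46. Multiplying back gave whole reads for all values (100% within 0.001), which were used for edgeR 4.0.16 and DESeq2 1.42.0. Between 57.9% and 69.6% of counts from 1 to 20 were even, for a reason the sources used here do not give. GENCODE vM21 on GRCm38 named 93.3% of transcripts; unnamed ones, with 1.79% to 2.76% of reads, were left out.

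The main test was limma 3.58.1 (R 4.3.3, trend) on log2(value + 1), with the means of all 4 groups fitted at once (16 residual degrees of freedom), adjusted by Benjamini and Hochberg over 19876 genes at 0.05, two-sided. Every adjusted p is from it unless another test is named. Counts by edgeR and DESeq2 are given without their shares over all genes, except where stated, and are not read against a background. Differences are on the log2(value + 1) scale. Other pseudocounts, filters, scalings, transcript choices and tools, a replicate block and leaving out each library were tried as alternatives. All genes of the list are described; every library is given for those called and for the smallest p of each step, and other pathway genes are named where called. The genes and lists were chosen with earlier results of these data known. The labels call the 5 tumours of a group replicates, and p-values measure the spread between them.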

Additional observations from a re-analysis of the deposited data

Results flagged for a closer look

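Within groups of 5, a library far from the other 4 was looked for on the log2 scale in 128 groups; chance alone gives about 1 in 20. A total of 17 such values were found. Vehicle replicate 3 stood low in 12 of them: Hk2 at 756, Gpi1 at 5845, Pfkl at 3196, Pfkp at 1391, Aldoa at 12824, Tpi1 at 4160.0, Gapdh at 6980, Pgk1 at 2527, Pgam1 at 1731, Eno1 at 5926, Pkm at 33812 and Ldha at 13149 normalised counts. This tumour also had the highest fibroblast and macrophage marker levels of its group; their part in its low values was not tested. Letrozole replicate 3 stood high for Slc2a1 at 4622 and for Tpi1 at 5939. Anti-PD-1 replicate 2 stood low for Pfkfb4 at 68.2 and for Eno2 at 12.4. Anti-PD-1 replicate 1, the shallowest library, stood high for Pgls at 3929.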

How the results depend on the processing

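No called gene changed direction, while genes that did not pass could change sign: Hk1, Pfkm and Pfkfb3 did so in the averaged comparison, and more within single arms, such as Pfkfb4 in letrozole against vehicle. The median of the 32 genes crossed 0 for the interaction (-0.01 to 0.25). In every alternative run for them 0 of the 32 genes were called for anti-PD-1 against vehicle, for letrozole + anti-PD-1 against letrozole and for the interaction. With letrozole averaged over both arms the count of 10 became 5 without the filter, 6 with median centring and 16 without both vehicle replicate 3 and anti-PD-1 replicate 1 (both libraries, below), and ran from 5 to 16 with 1 library left out. For letrozole against vehicle the count of 1 became 0 without the filter, with median centring, with the replicate block, with the 2 groups alone and by edgeR, 8 by DESeq2 and 16 without both libraries, and ran from 0 to 15 with 1 left out. For letrozole + anti-PD-1 against anti-PD-1 the count of 0 became 1 with the 2 groups alone and 2 by DESeq2 and without both libraries, and ran from 0 to 3 with 1 left out. For letrozole + anti-PD-1 against vehicle the count of 3 became 0 without the filter and with median centring, 1 with the 2 groups alone, 11 by DESeq2 and 15 without both libraries, and ran from 0 to 15 with 1 left out. The Pfkm/Pfkl ratio differed by 0.33 (exact adjusted p = 0.00363) without both libraries and by 0.18 to 0.32 with 1 left out. Calls among all genes also rose without vehicle replicate 3 alone. They went from 7% to 11.9% for letrozole averaged over both arms and from 0.951% to 4.14% for letrozole against vehicle. For letrozole + anti-PD-1 they went from 1.07% to 1.33% against anti-PD-1 and from 1.18% to 3.54% against vehicle. Shares under the other settings are not given here, so the counts under them are not read against a background. The cause of these changes was not tested. Same-numbered libraries showed little shared deviation (30 pairs, correlations -0.34 to 0.20, 3 over 0.1). Of 20 libraries, 1 correlated best with its own number. The pairs of number 5 all lay above 0 (0.03 to 0.20). Whether the numbers stand for a shared batch was not tested. The replicate block gave 8 calls for the averaged comparison and 4 for letrozole + anti-PD-1 against vehicle, where the main test gave 10 and 3. A fit of the contrast's groups alone was not run for the averaged comparison and the interaction, which need all groups. Depth limits the low genes Eno2, Slc16a3, Ldhb and Pfkfb4 most.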
